A study of Mus musculus with 6 samples.

Results

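The MYC, MAX and MXD network is a group of transcription factor genes, followed here in mouse acute myeloid leukaemia cells labelled as control or Dnmt3b-KO. The group was listed by gene symbol as 10 genes: Myc, Mycn, Mycl, Max, Mxd1, Mxd3, Mxd4, Mxi1, Mnt and Mlx. Of these, 9 have an array row that carries exactly 1 symbol, among 30142 genes measured in this way, and each of the 9 has a single such row. The row of Mycl carries an old and a new spelling of the same gene, so Mycl stayed outside the main comparison and its values are given apart. The genes were taken by symbol and not by their values, though earlier results of these data were known.

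RNA was measured on 6 Affymetrix arrays. The 3 control arrays come from leukaemia cells of littermate controls and the 3 Dnmt3b-KO arrays from leukaemia cells labelled as knocked out for Dnmt3b, a gene for a DNA methyltransferase. In both groups the leukaemia was driven by MLL-AF9, a fusion oncogene, and sorted leukaemia cells came from bone marrow of transplanted recipients killed when disease was terminal. The sources used here do not give the age of the mice, the sort markers or the way Dnmt3b was deleted. Whether arrays stand for separate mice is not stated in the labels. A p-value thus covers only the spread among these arrays, and this spread may be technical.

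MYC proteins bind DNA only as pairs with MAX, at a short site called the E-box, and the pair raises transcription of genes for growth, ribosome production and metabolism. MXD proteins, MXI1 and MNT compete for the same partner and sites, and bring the SIN3 corepressor and histone deacetylases. MLX is a MAX-like partner that joins the glucose-sensing Mondo proteins to the network. In blood formation, MYC marks dividing progenitors and MXD genes are known to be expressed as myeloid cells mature.

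Values are deposited log2 values of the array signal, and a difference is Dnmt3b-KO minus control in the same unit. The median gene measured 4.75 to 4.85 on the arrays. All arrays carried the myeloid progenitor genes Kit, Mpo and Elane far above that level, the lowest values being 9.71, 16.54 and 17.42. These 3 come from 14 measured myeloid leukaemia markers, of which 1, Flt3, had a mean below the median gene, with values of 4.24 to 4.62. Of 11 measured lymphoid markers, 9 had means below it. Dnmt3b itself measured 6.76, 6.83 and 6.78 in control. Its Dnmt3b-KO values were 6.47, 6.63 and 5.96, below every control, with a change of -0.44 ± 0.17 over 6 arrays and -0.24 ± 0.07 without replicate 3 (limma, adjusted p = 0.781 and 0.159). All 3 stay above the median gene, so this row does not show the loss of the gene, and which part of Dnmt3b was deleted is not stated. The third Dnmt3b-KO array stood apart: its correlation with each other array across genes was 0.981 to 0.982, where the closest pair of the others reached 0.999. On it, 12 of 17 measured monocyte and macrophage markers were higher than on Dnmt3b-KO replicates 1 and 2 by more than 1 (4.03% of all genes), and 2 were lower by more than 1 (2.94%). The summed log2 level of these 17 markers was 186 there, 122 and 125 on the other Dnmt3b-KO arrays and 121 to 124 in control. Of the macrophage complement genes, C1qb measured 9.75 there against at most 5.31 on the control arrays, C1qc 5.75 against at most 4.61 and C1qa 4.84 against at most 4.73. The part of this in the results below was not tested. Changes of network genes are therefore given over 6 arrays and without that array.

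None of the 9 network genes changed past the threshold in either comparison. Myc, the oncogene at the centre of the network, was at the control level on Dnmt3b-KO replicates 1 and 2 and lower on replicate 3. Mlx was lower on every Dnmt3b-KO array than on every control array. Mxd4 and Mxi1 were slightly above the controls on replicates 1 and 2 and below them on replicate 3. The threshold was an adjusted p of 0.05 in limma (Benjamini-Hochberg over all 30142 genes).

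Myc measured 12.90, 12.58 and 12.66 in control replicates 1, 2 and 3. On the Dnmt3b-KO arrays it measured 12.86, 12.67 and 11.22. The first and second Dnmt3b-KO values lie inside the control range and the third lies below every control. Over 6 arrays the change of Myc was -0.46 ± 0.44 (SE; limma, adjusted p = 0.836), with a 95% interval from -1.54 to 0.62. Without replicate 3 it was 0.05 ± 0.11 (limma, adjusted p = 0.892), with an interval from -0.21 to 0.32.

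The other MYC paralogues were at low levels. Background control rows of the arrays had medians of 3.23 to 3.40, so Mycn was near background. Mycn, best known from neural tumours and also active in early blood progenitors, measured 3.35, 3.44 and 3.34 in control and 3.31, 3.29 and 3.42 in Dnmt3b-KO. Mycl, known from lung tumours and dendritic cells, measured 3.68, 3.67 and 3.76 in control and 3.66, 3.76 and 3.75 in Dnmt3b-KO. Both lay below the median gene on every array, where small differences are hard to read. Mycn changed by -0.04 ± 0.06 over 6 arrays and by -0.08 ± 0.06 without replicate 3 (limma, adjusted p = 0.895 and 0.617). With rows of several spellings added, a step chosen after the data were seen, Mycl changed by 0.02 ± 0.06 and 0.01 ± 0.06 (limma, adjusted p = 0.953 and 0.984).

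Max, the obligate partner of MYC and also a partner of MXD and MNT proteins, measured 11.45, 11.33 and 11.34 in control. It measured 11.28, 11.12 and 11.89 in Dnmt3b-KO. The first 2 values lie below every control and the third above every control, so the groups do not keep 1 order. The change of Max was 0.05 ± 0.20 over 6 arrays and -0.18 ± 0.08 without replicate 3, where its 95% interval ran from -0.36 to 0.0041 (limma, adjusted p = 0.963 and 0.334).

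Mlx measured 12.18, 12.07 and 12.10 in control and 11.76, 11.93 and 11.45 in Dnmt3b-KO. All Dnmt3b-KO values lie below all controls, and replicate 3 is the lowest. The change of Mlx was -0.40 ± 0.13 over 6 arrays, with a 95% interval from -0.72 to -0.09. Without replicate 3 it was -0.27 ± 0.07, with an interval from -0.45 to -0.10. Neither passed the threshold after adjustment over all genes (limma, adjusted p = 0.705 and 0.145; unadjusted p = 0.0213 and 0.00887).

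Mxd1, an antagonist of MYC that is known to rise as granulocytes mature, measured 10.56, 10.40 and 10.40 in control. In Dnmt3b-KO it measured 10.38, 10.50 and 9.19. Only the third Dnmt3b-KO value lies clearly outside the controls, as for Myc. Its change was -0.43 ± 0.35 over 6 arrays and -0.01 ± 0.08 without replicate 3, where the 95% interval ran from -0.20 to 0.17 (limma, adjusted p = 0.833 and 0.963).

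Mxd4, an antagonist of the same family, measured 10.06, 9.87 and 9.89 in control and 10.37, 10.15 and 9.10 in Dnmt3b-KO. The first 2 of these lie above every control and the third lies below every control. The change was -0.07 ± 0.33 over 6 arrays and 0.32 ± 0.10 without replicate 3, with a 95% interval from 0.09 to 0.55 in the second case (limma, adjusted p = 0.973 and 0.184). Mxi1 showed the same order with smaller steps. It measured 9.22, 9.22 and 9.21 in control and 9.41, 9.38 and 8.97 in Dnmt3b-KO. Its change was 0.04 ± 0.13 over 6 arrays and 0.18 ± 0.05 without replicate 3, with a 95% interval from 0.06 to 0.31 in the second case (limma, adjusted p = 0.956 and 0.164).

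Mxd3, an MXD gene linked to dividing cells, measured 4.33, 4.28 and 4.33 in control and 4.50, 4.45 and 4.39 in Dnmt3b-KO. Every Dnmt3b-KO value is above every control, but all 6 lie below the median gene and the spacing is small. The change was 0.13 ± 0.06 over 6 arrays and 0.16 ± 0.05 without replicate 3 (limma, adjusted p = 0.798 and 0.228). Mnt, an antagonist present in most cell types whether or not they divide, measured 7.94, 7.83 and 7.99 in control and 7.79, 7.86 and 7.82 in Dnmt3b-KO. These groups overlap. Mnt changed by -0.10 ± 0.07 over 6 arrays and by -0.09 ± 0.07 without replicate 3 (limma, adjusted p = 0.833 and 0.611).

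**Figure D1:**
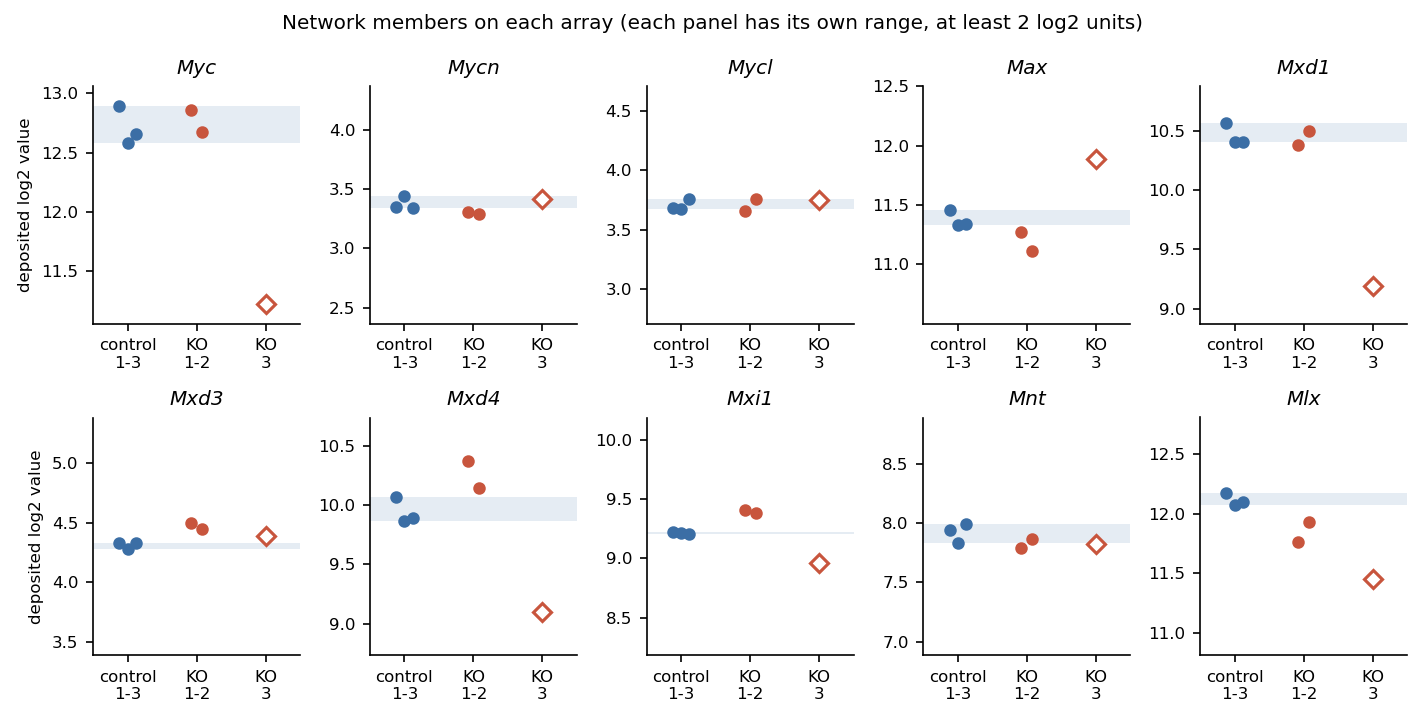
Deposited log2 values of the 10 listed genes on each array, with control arrays in blue, Dnmt3b-KO replicates 1 and 2 as filled red circles, replicate 3 as an open diamond and the control range as a blue band. Myc, Mxd1 and Mxd4 are lowest on replicate 3, at 11.22, 9.19 and 9.10, and Mlx lies below the band on all 3 Dnmt3b-KO arrays.

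Across the 9 genes, the adjusted p reached the threshold for 0 over 6 arrays, as for 0% of all genes, and for 0 without replicate 3, as against 1.69% of all genes. At an unadjusted p under 0.05 limma gave 1 of 9 over 6 arrays, Mlx, against 6.37% of all genes in either direction and 3.58% on the lower side. Without replicate 3 it gave 4 of 9, against 15.5% of all genes: Mxd3, Mxd4 and Mxi1 on the higher side (7.74% of all genes) and Mlx on the lower side (7.73%). Over 6 arrays 2 of 9 genes had no overlap between the groups, against 14.9% of all genes. They were Mxd3, above every control (6.68% of all genes), and Mlx, below (8.21%). Without replicate 3 they did not overlap for 6 of 9, where the share was 32.5% of all genes. Of the 6, Mxd3, Mxd4 and Mxi1 lay above every control (15.1% of all genes) and Mycn, Max and Mlx below (17.4%). The values of Mycn were near the array background. The median change of the 9 genes without replicate 3 was -0.01, and that of all genes was -0.01 as well.

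**Figure D2:**
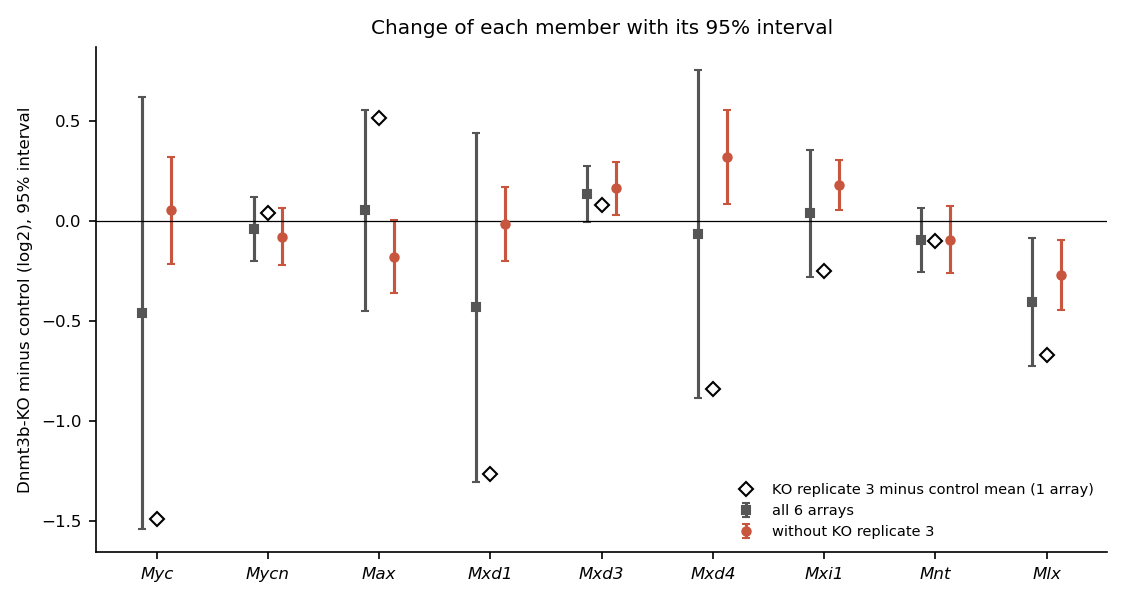
Change of each of the 9 genes, Dnmt3b-KO minus control in log2 units, with the 95% interval of limma over all 6 arrays (grey squares) and without Dnmt3b-KO replicate 3 (red circles); open diamonds give replicate 3 minus the control mean. The intervals of Myc, Mxd1 and Mxd4 narrow when replicate 3 is left out, and that of Mlx lies below 0 in both comparisons.

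On the third Dnmt3b-KO array several network genes lay far from replicates 1 and 2. Myc was lower there than the mean of replicates 1 and 2 by more than 1, with a difference of -1.54. The same held for Mxd1 (-1.25) and Mxd4 (-1.16). These 3 of 9 genes compare with 2.94% of all genes that were lower by more than 1 on that array. No network gene was higher by more than 1, against 4.03% of all genes. Max was higher by 0.69, and Mxi1 and Mlx were lower, with differences of -0.43 and -0.40. Mnt differed by less than 0.01. An activator gene and 2 of its antagonists were thus low on the same array. That array lay below every control for 6 of the 9 genes and above every control for 2, Max and Mxd3, where the shares of all genes were 36.4% and 39%. It rests on 1 array, so these differences have no replicate check.

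The network binds the E-box, so the promoters of its own genes were searched for the letters CACGTG, which read the same on both strands. The window ran from 250 bases before to 50 bases after each start in RefSeq, build GRCm38.p6. It was present for 9 of the 10 genes, with 11 starts in all; Myc had no entry. The letters were found in 4 of the 11 windows, those of Mxd4, Mnt, Mlx and Max, once in each. Of all 32851 windows of that length, 7.15% held them. These 4 stretches of 60 bases are shown because they carry the match, with the match in capitals, 5′ to 3′ along the gene's strand.
Mxd4, chr5:34187897-34187956, minus strand: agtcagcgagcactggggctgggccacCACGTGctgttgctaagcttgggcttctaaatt
Mnt, chr11:74830774-74830833, plus strand: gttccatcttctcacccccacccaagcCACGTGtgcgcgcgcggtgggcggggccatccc
Mlx, chr11:101087223-101087282, plus strand: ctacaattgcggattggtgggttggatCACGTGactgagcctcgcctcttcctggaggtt
Max, chr12:76962246-76962305, minus strand: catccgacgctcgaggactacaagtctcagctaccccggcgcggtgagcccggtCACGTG
The match begins 219 bases before the start in Mxd4, 123 in Mnt, 40 in Mlx and 3 in Max, where it spans the start. The 4 genes with a match did not share a direction without replicate 3, with changes of 0.32 for Mxd4, -0.09 for Mnt, -0.27 for Mlx and -0.18 for Max. A match describes these letters and does not show binding in these cells.

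**Figure D3:**
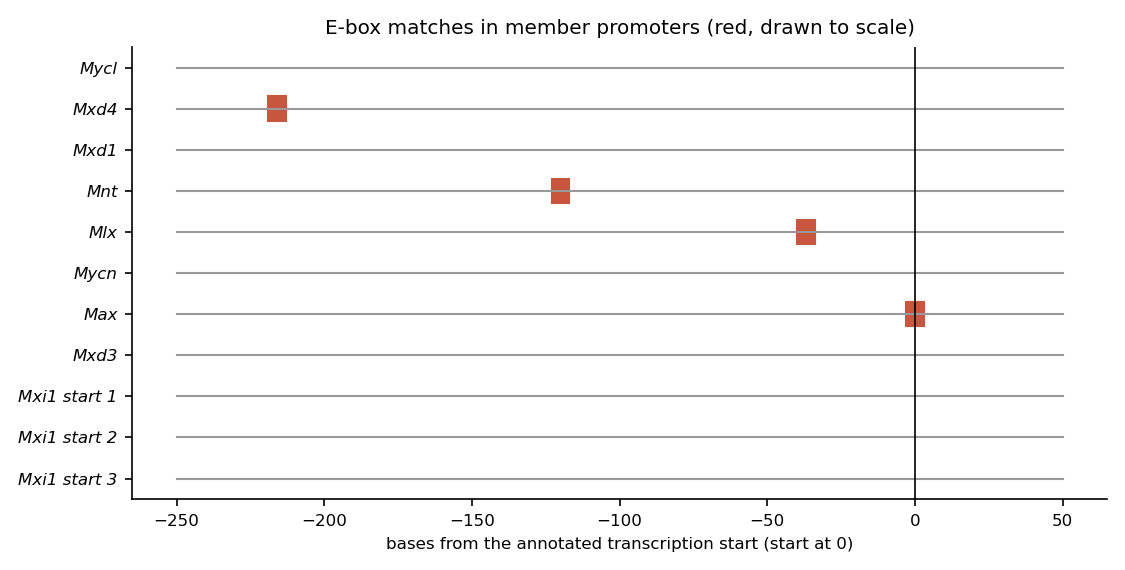
Positions of the letters searched for in the promoter windows of 9 network genes, drawn to scale as bases from the annotated transcription start; Mxi1 has 3 annotated starts. Red boxes mark the matches in Mxd4, Mnt, Mlx and Max, which lie 219, 123, 40 and 3 bases before the start.

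Genes that complete the network or work with it were listed beside it, with earlier results of these data known, and 0 of them passed over 6 arrays by limma. Mlxip and Mlxipl encode the Mondo partners of MLX, and Mga encodes a large MAX partner. Without replicate 3, 0 of these 3 passed by limma, and 0 had an unadjusted p under 0.05. Mga measured 11.88, 11.79 and 11.80 in control and 11.69, 11.75 and 11.11 in Dnmt3b-KO, all below the controls. Its change was -0.31 ± 0.18 over 6 arrays and -0.11 ± 0.06 without replicate 3 (limma, adjusted p = 0.83 and 0.483). Mlxipl lay below the median gene.

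MXD proteins act through SIN3 and histone deacetylases. Of 9 measured corepressor genes, 1 fell without replicate 3 and 0 rose, against 0.75% and 0.939% of all genes. This was Sap30, which encodes a SIN3-associated protein. It measured 8.32, 8.48 and 8.39 in control and 7.99, 7.81 and 10.72 in Dnmt3b-KO, so the third array lies far on the other side of the controls. Sap30 fell by 0.50 ± 0.08 without replicate 3 (limma, adjusted p = 0.0486), against a change of 0.45 over 6 arrays (limma, adjusted p = 0.905). The call ended when any 1 further array was left out (limma, adjusted p from 0.11 to 0.195), with a variance trend (0.0574), with repeated values counted once (0.0534), with the replicate number as a block (0.158) and without empirical Bayes (0.291). Sin3a, the scaffold of the complex, measured 12.48, 12.41 and 12.43 in control and 12.22, 12.29 and 11.41 in Dnmt3b-KO. Its change was -0.46 ± 0.24 over 6 arrays and -0.18 ± 0.06 without replicate 3 (limma, adjusted p = 0.824 and 0.203). Hdac1 changed by -0.06 ± 0.08 and 0.01 ± 0.06 in these comparisons (limma, adjusted p = 0.869 and 0.981). Hdac2 changed by -0.07 ± 0.13 and 0.05 ± 0.10 (limma, adjusted p = 0.919 and 0.9). Sin3b changed by -0.34 ± 0.11 and -0.24 ± 0.08 (limma, adjusted p = 0.73 and 0.249). Sin3a, Sin3b and Suds3 lay below every control on all 3 Dnmt3b-KO arrays (8.21% of all genes). Without replicate 3, 3 of the 9 genes had an unadjusted p under 0.05 by limma, all lower (7.73% of all genes). Sin3a, Sin3b, Suds3 and the deacetylases were named after their values were seen.

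MAX and MGA also belong to a Polycomb complex that silences germline genes. Of its 10 measured genes 0 passed without replicate 3 by limma, and 0 had an unadjusted p under 0.05. Rnf2, the ubiquitin ligase of the complex, had the smallest p and changed by -0.12 ± 0.06, and by -0.07 ± 0.07 over 6 arrays (limma, adjusted p = 0.378 and 0.844). Pcgf6, the subunit that sets this complex apart, measured 6.55, 6.59 and 6.32 in control and 6.13, 6.38 and 8.74 in Dnmt3b-KO, again high on the third array alone. It was named after its values were seen.

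Among 11 measured coactivators and partners of MYC, 0 passed without replicate 3 and 1 had an unadjusted p under 0.05 by limma, against 15.5% of all genes. That gene, Ruvbl2, a helicase of MYC-bound acetyltransferase complexes, measured 9.69, 9.89 and 9.81 in control and 9.39, 9.56 and 9.34 in Dnmt3b-KO. All its Dnmt3b-KO values are below its controls. The change was -0.37 over 6 arrays and -0.32 ± 0.08 without replicate 3 (limma, adjusted p = 0.645 and 0.142). On replicate 3 all 11 of these genes lay below every control, where 36.4% of all genes did.

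Of 10 measured genes that set the stability of MYC protein, 1 fell without replicate 3 and 0 rose, against 0.75% and 0.939% of all genes. Aurka, a mitotic kinase that also protects MYC proteins from breakdown, measured 12.10, 12.07 and 12.03 in control and 11.73, 11.74 and 11.23 in Dnmt3b-KO. Every Dnmt3b-KO value is below every control. It fell by 0.33 ± 0.05 without replicate 3 (limma, adjusted p = 0.0473) and its change over 6 arrays was -0.50 ± 0.15 (limma, adjusted p = 0.679). The call ended when any 1 further array was left out (limma, adjusted p from 0.0992 to 0.259), under centring (0.0588) and repeated quantile normalization (0.0596), with a variance trend (0.0617), with repeated values counted once (0.052), with the replicate number as a block (0.134) and without empirical Bayes (0.201). Fbxw7, the ubiquitin ligase that marks MYC for breakdown, changed by 0.0096 ± 0.09 over 6 arrays and 0.10 ± 0.05 without replicate 3 (limma, adjusted p = 0.989 and 0.494). It was named after its values were seen.

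Most genes that MYC is known to raise had values below the control mean on Dnmt3b-KO replicates 1 and 2, while Myc itself stayed at the control level there. Of 28 measured targets 2 fell and 0 rose without replicate 3, against 0.75% and 0.939% of all genes. The changes of 25 of the 28 were below 0, against 53.7% of all genes, and 13 had an unadjusted p under 0.05 by limma, 12 of them lower, against 7.73% of all genes on that side. The median change was -0.14, and that of all genes -0.01. Of the 28 targets, 0 had a mean below the median gene. In the fit of the 15071 genes above the median level, 4 of the 28 fell and 0 rose. There 482 of the 15071 genes fell, 521 rose and 3466 had an unadjusted p under 0.05 by limma. These are larger shares than among all genes. Over 6 arrays 21 of 28 were below 0, against 51.2% of all genes, and 17 to 25 when 1 array was left out. Without 1 more array the number below 0 was 23 to 27 and none of the 28 passed by limma. No set test was run on this list, which was chosen with earlier results of these data known.

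Both targets that fell serve ribosome production. Dkc1, the pseudouridine synthase of small nucleolar particles, measured 13.96, 13.97 and 13.94 in control and 13.50, 13.56 and 12.98 in Dnmt3b-KO. Nop16, a nucleolar protein gene, measured 9.05, 9.09 and 9.09 in control and 8.70, 8.76 and 9.13 in Dnmt3b-KO. For Dkc1 all Dnmt3b-KO values lie below the controls, whereas for Nop16 the third lies above them. Without replicate 3, Dkc1 fell by 0.43 ± 0.05 and Nop16 by 0.35 ± 0.05 (limma, adjusted p = 0.0304 and 0.042). Over 6 arrays they changed by -0.61 ± 0.16 and -0.22 ± 0.12 (limma, adjusted p = 0.651 and 0.83). Both calls ended when any 1 further array was left out, with adjusted p from 0.0721 to 0.2 for Dkc1 and from 0.109 to 0.252 for Nop16. They also ended with the replicate number as a block (limma, adjusted p = 0.1 and 0.135) and without empirical Bayes (0.184 and 0.201), and that of Nop16 with a variance trend (0.0528). On replicate 3, 11 of the 28 targets lay above every control, among them Ncl at 15.75 and Hspd1 at 13.83, and 12 lay below. These counts are near the shares of all genes, 39% above and 36.4% below.

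Of 14 measured genes that MYC is known to hold down, 0 passed without replicate 3 by limma, and 2 had an unadjusted p under 0.05, against 15.5% of all genes. Cdkn1b, which encodes the cell cycle inhibitor p27, had the smallest p. It measured 8.63, 8.63 and 8.68 in control and 8.96, 8.93 and 8.29 in Dnmt3b-KO, above the controls on replicates 1 and 2 and below them on replicate 3. The change was 0.08 ± 0.19 over 6 arrays and 0.30 ± 0.05 without replicate 3 (limma, adjusted p = 0.934 and 0.0625). On replicate 3, 8 of the 14 genes lay below every control and 4 above, against 36.4% and 39% of all genes. The median difference of the list from replicates 1 and 2 was -0.13 there. Cdkn1a is the gene of the inhibitor p21, and Ndrg1 is a stress response gene. Named after their values were seen, they were the 2 members higher on replicate 3 than on replicates 1 and 2 by more than 1 (4.03% of all genes). Cdkn1a measured 8.87, 8.51 and 9.14 in control and 8.53, 8.38 and 11.66 in Dnmt3b-KO. Ndrg1 measured 6.61, 6.66 and 6.94 in control and 6.97, 6.90 and 10.76 in Dnmt3b-KO. The same array held the lowest Myc value and the high macrophage markers, and the part of either in these values was not tested.

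MLX with its Mondo partners is known to drive Txnip, an inhibitor of glucose uptake, and genes of sugar and fat metabolism. Of 12 measured genes 0 passed without replicate 3 by limma, and 6 had an unadjusted p under 0.05, against 15.5% of all genes. Of the 6, 2 were higher (7.74% of all genes) and 4 lower (7.73%). Fasn, the fatty acid synthase gene, had the smallest p. It measured 10.64, 10.62 and 10.73 in control and 9.94, 10.28 and 10.36 in Dnmt3b-KO, all below the controls, with a change of -0.47 over 6 arrays and -0.55 ± 0.11 without replicate 3 (limma, adjusted p = 0.648 and 0.0751). Txnip, named after its values were seen, measured 13.13, 13.05 and 13.05 in control and 13.94, 13.49 and 15.32 in Dnmt3b-KO. Its values lie above the controls on every Dnmt3b-KO array, the arrays on which Mlx lies below. Arrdc4 and Klf10 also lay above every control on all 3 arrays (6.68% of all genes), while Fasn, G6pc3 and Acaca lay below (8.21%). Arrdc4, Klf10, G6pc3 and Acaca were named after their values were seen as well. The part of Mlx in these values was not tested. The change of Txnip was 1.17 ± 0.46 over 6 arrays and 0.64 ± 0.13 without replicate 3 (limma, adjusted p = 0.776 and 0.0842).

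Dividing cells carry much Myc, so S and G2/M phase genes were read on the same arrays. Of 18 measured genes 0 passed without replicate 3 by limma, 2 had an unadjusted p under 0.05 (15.5% of all genes), and the median change was -0.05. Plk1, a mitotic kinase, had the smallest p and changed by -0.27 ± 0.08, and by -0.58 ± 0.27 over 6 arrays (limma, adjusted p = 0.165 and 0.82). On replicate 3 the median of the list lay 0.77 below replicates 1 and 2 (median difference -0.77, against 0.02 for all genes), and 17 of 18 genes lay below every control, against 36.4% of all genes. The low Myc value was thus found on the array with the lowest values of these genes, and neither was tested as a source of the other.

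**Figure D4:**
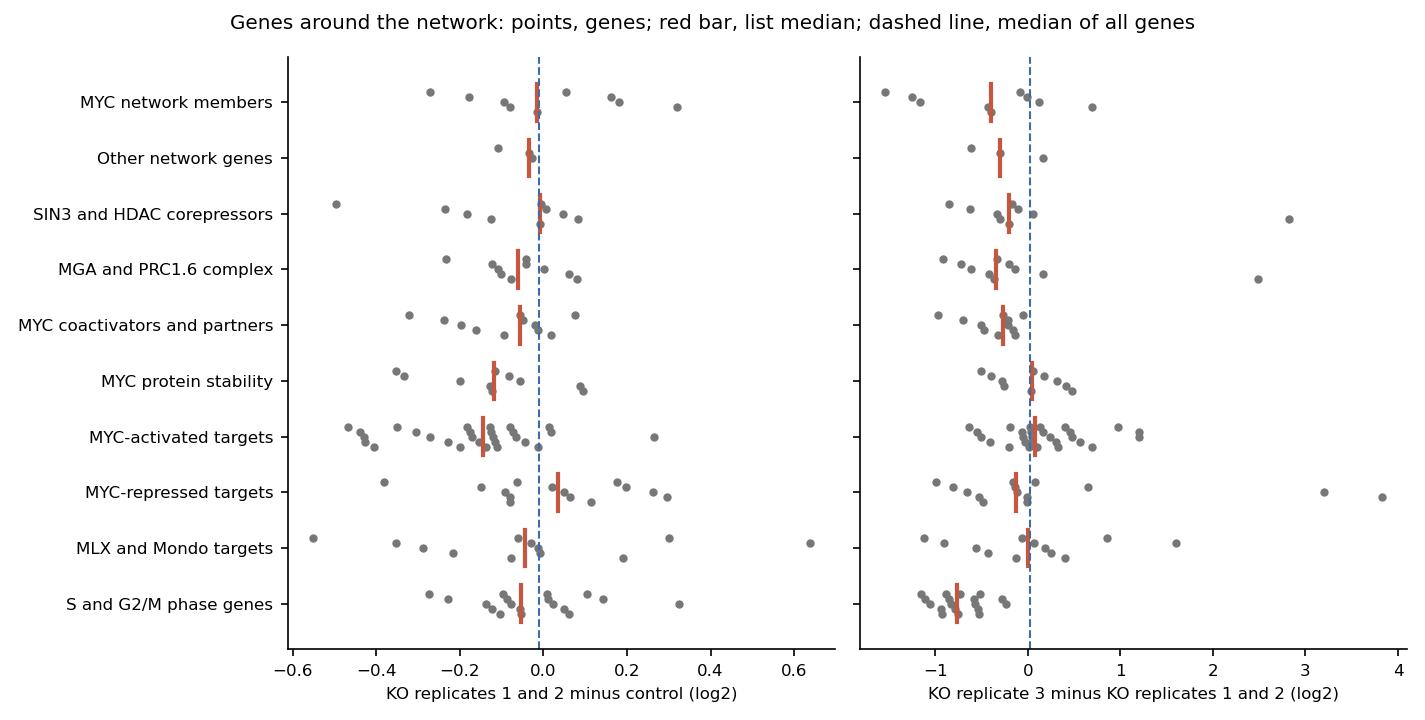
Genes of each list as points, on the left as Dnmt3b-KO replicates 1 and 2 minus control and on the right as replicate 3 minus replicates 1 and 2, in log2 units; red bars are list medians and the dashed line is the median of all genes. MYC-activated targets have a median of -0.14 on the left, and S and G2/M phase genes a median of -0.77 on the right.

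Markers of other cell types were read beside these values. Among 12 genes of mast cells, basophils and eosinophils, 6 fell and 1 rose without replicate 3, where 0.75% of all genes fell and 0.939% rose. The summed log2 level was 89.6 to 90.1 in control, 78.5 and 80.9 on replicates 1 and 2 and 68.9 on replicate 3. Cpa3, a mast cell protease gene, fell by 3.12 without replicate 3 (limma, adjusted p = 0.00469) and its change over 6 arrays was -4.08 (limma, adjusted p = 0.566). Prg2 and Epx changed by -3.36 and -2.01 without replicate 3 (limma, adjusted p = 0.00394 and 0.000867). Over 6 arrays they changed by -3.90 and -2.17 (limma, adjusted p = 0.313 and 0.185). The 1 that rose, Siglecf, changed by 1.01 ± 0.13 without replicate 3 and 0.44 ± 0.49 over 6 arrays (limma, adjusted p = 0.0293 and 0.85). It lay above every control on replicates 1 and 2 and below them on replicate 3. None of these calls held without empirical Bayes. Of 14 myeloid leukaemia markers 1 rose and 2 fell without replicate 3, against 0.939% and 0.75% of all genes. The 1 that rose, Meis1, a partner of HOX proteins in leukaemia, measured 11.34, 11.41 and 11.36 in control and 11.998, 12.04 and 10.21 in Dnmt3b-KO, with the third value below every control. Its change was 0.65 ± 0.06 without replicate 3 and 0.05 ± 0.50 over 6 arrays (limma, adjusted p = 0.0111 and 0.99). The call of Meis1 ended without control replicate 1 (limma, adjusted p = 0.0672) and without Dnmt3b-KO replicate 1 (0.105) or 2 (0.0822), and with the replicate number as a block (0.0663); both calls ended without empirical Bayes (0.207 for Cpa3 and 0.174 for Meis1). The 2 that fell were Mef2c and Cd34. Mef2c measured 9.49, 9.79 and 10.15 in control and 8.27, 8.15 and 10.73 in Dnmt3b-KO. Cd34 measured 9.41, 9.68 and 9.68 in control and 8.81, 8.35 and 6.84 in Dnmt3b-KO. Their changes were -1.60 ± 0.18 and -1.01 ± 0.15 without replicate 3 (limma, adjusted p = 0.021 and 0.0378). Over 6 arrays they were -0.76 ± 0.72 and -1.59 ± 0.50 (limma, adjusted p = 0.835 and 0.705). Without empirical Bayes neither call held. Of 6 erythroid markers 0 passed by limma, 4 had an unadjusted p under 0.05, all lower (7.73% of all genes), and the summed level was 30.3 to 32.6 in control and 28.0 to 29.1 in Dnmt3b-KO. Alas2 had the smallest p, with a change of -1.25 ± 0.22 over 6 arrays and -1.15 ± 0.22 without replicate 3 (limma, adjusted p = 0.566 and 0.0705). Of 13 immediate early and heat shock genes, which respond to handling, 1 fell and 0 rose without replicate 3, with 5 higher and 2 lower at an unadjusted p under 0.05 (7.74% and 7.73% of all genes). The gene that fell was Hsph1, with a change of -1.06 ± 0.16 without replicate 3 and -0.75 ± 0.30 over 6 arrays (limma, adjusted p = 0.0393 and 0.781). Its call ended without empirical Bayes. Named after their values were seen, Hspa1a lay below every control on all 3 Dnmt3b-KO arrays, and Egr1, Ier2 and Jund overlapped the controls. Fos, Fosb, Jun and Dusp1, also named after their values were seen, lay above every control on all 3 Dnmt3b-KO arrays (6.68% of all genes). Their changes without replicate 3 were 1.20, 1.92, 1.66 and 1.70 (limma, adjusted p = 0.122, 0.077, 0.137 and 0.0631), and over 6 arrays 1.13, 1.59, 1.56 and 1.48 (adjusted p = 0.648, 0.663, 0.648 and 0.625). The summed level of the 13 genes was 111 to 116 in control and 116 to 122 in Dnmt3b-KO. The part of these lists in the lower values of Mlx and of MYC targets was not tested. In sorted cells, fewer cells of a type and less RNA per cell cannot be told apart.

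Pvt1, the long non-coding RNA gene next to Myc, was read for comparison after its values were seen. It measured 4.89, 5.07 and 5.05 in control and 4.90, 4.94 and 6.20 in Dnmt3b-KO. It was thus higher on the array where Myc was lower, with a difference of 1.28 from replicates 1 and 2. Over 6 arrays Pvt1 changed by 0.34 ± 0.36 and without replicate 3 by -0.09 ± 0.07 (limma, adjusted p = 0.844 and 0.681).

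**Figure D5:**
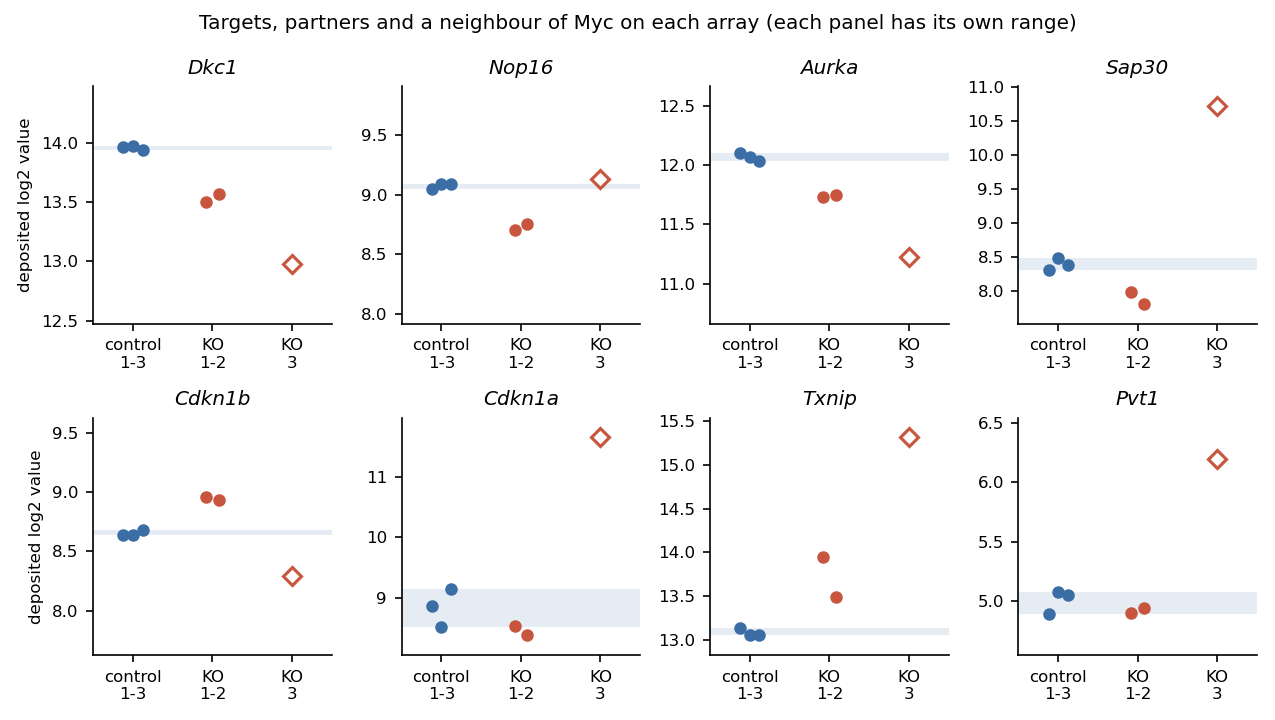
Deposited log2 values of 8 genes around the network on each array, with the same symbols as for the network genes and the control range as a blue band. Dkc1 and Aurka lie below the controls and Txnip above them on all 3 Dnmt3b-KO arrays, while Sap30, Cdkn1a and Pvt1 stand high on replicate 3 alone, at 10.72, 11.66 and 6.20.

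The genes whose values lay closest to those of Myc were found by the root mean square distance over 6 arrays, after each gene was centred on its control mean, among 14817 genes above the median level with values of their own. They were Gm6184 with a distance of 0.03, Gm6954 with 0.06 and 9030624G23Rik with 0.07 log2 units. Their values on replicate 3 were 6.61, 8.72 and 7.07, each the lowest of its gene. The likeness rests mainly on that array, and symbols of this kind come from the platform annotation.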

How the data were processed

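Values deposited by the authors are in log2 units, made with RMA per the submitters' processing notes; version, build and annotation are not given in the sources used here. They exceed 16, the log2 of a 16-bit scanner range, so differences are not turned into folds. The table has 72688 rows, 6732 of them no transcript clusters. An older platform annotation gave 30604 rows 1 symbol, 612 several spellings of 1 gene and 1534 several genes, and left 33206 unnamed. For 827 rows the symbol was updated by gene identifier (RefSeq, GRCm38.p6). The highest-mean row stood for each of 30142 genes. Groups were compared with limma 3.58.1 (lmFit, eBayes) under R 4.3.3, with Benjamini-Hochberg adjustment over all genes and a threshold of 0.05. The fit was tested on simulated data. Precision is limited by the number of arrays.

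Network genes, gene lists, comparisons and the rule for named genes were chosen with earlier results of these data known. That rule takes each network gene, Dnmt3b, the 3 genes nearest to Myc and, in each list, at most 3 genes past the threshold in each direction, otherwise the gene of smallest p. Of the genes so taken, F13a1 and Cd79b are given only with the other settings. The labels state no pairing, and numbers were not treated as pairs. Deviations of same-numbered arrays from their group means correlated at 0.126, 0.0331 and 0.108. The deviating replicate 3 enters the Dnmt3b-KO mean, so these values cannot decide whether arrays were paired. Without it, control replicate 3 is alone in its block when the replicate number is used as a block. That fit then gives the same changes as leaving out control replicate 3 and is not a separate check of them. Other settings tried were a variance trend with robust fitting, quantile normalization again, arrays centred, dim genes removed, rows averaged per gene, identical values counted once, no empirical Bayes, a replicate block, array weights, each array left out and, chosen after the data were seen, rows with several spellings and an adjusted p under 0.1. No set test was run. Apart from the lymphoid markers, most genes of each list lay above the median gene, while the shares of all genes include the dim ones.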

Additional observations from a re-analysis of the deposited data

How the results depend on the processing

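Over 6 arrays 0 genes passed, also with the replicate number as a block, and 103 passed with array weights. Leaving out 1 array gave 0 to 509. The 509 genes without Dnmt3b-KO replicate 3 became 1003 among genes above the median level, 1148 at an adjusted p under 0.1 (chosen after the data were seen), 96 with the replicate block and 0 without empirical Bayes, where 3781 had an unadjusted p under 0.05. Leaving out 1 more array gave 13 to 262. Testing fewer genes enters the count above the median; for the rest the cause was not tested.

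No network gene passed under any of these settings in either comparison. In the direction of change, 7 values of network genes reversed over 6 arrays and 4 without replicate 3, none past the threshold. With array weights Max turned to -0.18, Mxd4 to 0.25, Sap30 to -0.42, Cd79b to 0.12, Gm6954 to 0.0072 and 9030624G23Rik to 0.026. The estimated weight of Dnmt3b-KO replicate 3 was 0.11, and the other arrays had 1.26 to 2.17. With 1 of the 6 arrays left out, Myc ranged from -0.77 to 0.054, Max from -0.18 to 0.21, Mxd4 from -0.32 to 0.32 and Mxi1 from -0.040 to 0.18. Named list genes that turned ranged from -0.50 to 0.96 for Sap30, -0.037 to 0.30 for Cdkn1b, -0.40 to 0.66 for F13a1, -0.59 to 0.18 for Cd79b and -0.26 to 0.65 for Meis1. The genes nearest to Myc ranged from -0.75 to 0.063 for Gm6184, -0.74 to 0.079 for Gm6954 and -0.74 to 0.096 for 9030624G23Rik. Without replicate 3 and 1 more array, Myc ranged from -0.040 to 0.15, Mxd1 from -0.074 to 0.045 and Gm6184 from -0.030 to 0.16, while Mxd3, Mxd4, Mxi1 and Mlx kept their directions. A lone Dnmt3b-KO array takes its spread from the controls.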
